A study of Mus musculus with 6 samples.

Results

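The coiled-coil domain (Ccdc) genes of mouse carry numbered names given for a predicted coiled coil, a pair or bundle of winding helices, and not for a shared function. They were taken as every gene in the deposited files whose symbol is Ccdc followed by a number and at most 1 lower-case letter. This gave 145 gene identifiers with 144 symbols, of 47643 genes listed. Ccdc142 is listed under 2 identifiers, 1 of them at 0 in every library. All 145 were found in the GENCODE M21 annotation, where all are protein coding and 10 go by newer symbols, such as Deup1 for Ccdc67.

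The RNA came from ependymal cells that line the adult ventricular-subventricular zone (V-SVZ) of mice, the niche of neural stem cells along the lateral ventricle. The cells were sorted on GFP 2 days after tamoxifen. In the Ccn1 conditional knockout (cKO, 3 samples) tamoxifen led to recombination, GFP expression and loss of Ccn1, the gene of a secreted matrix-associated protein. The controls (3 samples) were sorted in the same way from tamoxifen-treated mice labelled control. The Cre driver, the age in weeks and whether a sample is 1 animal or a pool were not given in the sources used here, and p-values below therefore measure only the spread between these samples, which may be technical. The labels call the RNA total RNA in 1 field and cytoplasmic RNA in another.

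Ependymal cells carry tufts of motile cilia whose beat moves cerebrospinal fluid along the ventricle wall. The shaft of a motile cilium, the axoneme, is a ring of microtubule doublets on which outer and inner dynein arms repeat at a fixed spacing. Some Ccdc proteins are parts of this machine: docking factors for the dynein arms, the ruler that sets their repeat, links between doublets, and proteins inside the doublets. Others act at the basal bodies from which cilia grow or in the sperm tail, and many work in splicing, mitochondria or vesicle traffic. By role, 13 of the 145 were put in an axoneme class, 15 in a basal body and centriole class and 12 in a sperm class. These 40 are called cilia-linked here. Of the other 105, 34 had another known role and 71 were given none.

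The library totals ran between 13401499 and 15689579 estimated counts. In a principal component analysis over all tested genes, control 1 stood apart on the first component, with 29.2% of the variance, and control 3 stood apart on another, with 21.9%. Where leaving out a library moved a difference far, the value without it is given here or with the results of other settings. The deleted gene went with the labels: Ccn1 had 411, 238 and 524 counts in the cKO libraries, against 1665, 2037 and 2224 in the controls. Its log2 difference was -2.22 ± 0.38 (SE, edgeR adjusted p = 0.99999). DESeq2 gave this difference an adjusted p of 4.04e-06, and over all alternatives the adjusted p ran between that value and 0.99998. All 12 ependymal markers had a mean of at least 10 TPM (a transcript level scaled for length and library size), among them Tmem212 at 5452 TPM and Foxj1, the master regulator of motile cilia, at 13.9 TPM. Of 5 endothelial markers, 4 were at 0 in all 6 libraries. Microglial markers summed to between 100.3 and 124.7 TPM in the cKO and between 87.2 and 111.9 TPM in the control, while Ccdc88b, a girdin relative of blood cells, was listed at 0 throughout.

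Sequence upstream of the RefSeq start is shown for 5 cilia-linked members as examples. Genes of motile cilia are often controlled by RFX factors, which bind a motif called the X-box. The letters are from RefSeq on GRCm38.p6, 60 bases each, read 5′ to 3′ on the strand of the gene, and capitals mark the match. The first 2 hold GTTGCC or its reverse complement, which is 1 arm of the X-box, and the others hold a full form, GTNNCC and GNAAC set 3 bases apart. They are from chr9:44240502-44240561 (Ccdc153, plus strand), chr8:95534040-95534099 (Ccdc113, plus), chr7:45924155-45924214 (Ccdc114, plus), chr9:22002635-22002694 (Ccdc151, minus) and chr9:15627897-15627956 (Ccdc67, minus). By the GENCODE starts, the Ccdc114 stretch and the marked bases of Ccdc113 and Ccdc67 lie just inside the gene.
Ccdc153: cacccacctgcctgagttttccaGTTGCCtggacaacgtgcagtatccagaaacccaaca
Ccdc113: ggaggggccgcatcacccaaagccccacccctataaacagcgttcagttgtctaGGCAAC
Ccdc114: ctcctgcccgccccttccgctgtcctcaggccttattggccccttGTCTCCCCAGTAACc
Ccdc151: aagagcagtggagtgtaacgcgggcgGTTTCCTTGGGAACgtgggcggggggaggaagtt
Ccdc67: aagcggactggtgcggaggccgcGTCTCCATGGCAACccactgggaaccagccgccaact

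RefSeq promoter windows of 300 bases (250 before the start and 50 after it) were at hand for 117 members. The full X-box form, searched on both strands, was in 2 of the 13 promoters of axoneme members (15.4%), those of Ccdc114 and Ccdc151. It was in 10 of the 145 promoters of all members (6.9%) and in 714 of 32851 promoters of all genes (2.17%). Of the 10, 6 belonged to members outside the cilia-linked classes. The full form was in 9.52% of the promoters of members at 10 TPM or more and in 4.88% of those under 10 TPM. Members with it upstream of the start included Ccdc27, Ccdc175 and Ccdc184, each with a mean of 0 TPM. The arm GTTGCC, which can lie inside the full form, was in 5 of the 13 axoneme promoters (38.5%), namely those of Ccdc103, Ccdc113, Ccdc153, Ccdc181 and Ccdc96. It was in 20.7% of all member promoters and 12.5% of all promoters. By level, it was in 30.2% of the promoters of members at 10 TPM or more and in 13.4% of those under 10 TPM. The forkhead core GTAAACA, the type of site that Foxj1 binds, was in 0 of the 13 axoneme promoters, 3.45% of all member promoters and 3.65% of all promoters. These are matches of letters in a window, and binding was not measured.

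The level of a member in ependymal cells differed between the classes, which were set with earlier results of these data known. It is therefore described here and not tested. All 13 axoneme members had a mean of at least 10 TPM over the 6 libraries, and 6 had at least 100 TPM. Of the 12 sperm members, 4 reached 10 TPM, 2 had between 1 and 10 TPM and 6 had less than 1 TPM. Of the 15 basal body and centriole members, 7 reached 10 TPM and none reached 100 TPM. The median level was 98.9 TPM in the axoneme class, 8.34 TPM in the basal body class and 0.98 TPM in the sperm class. It was 13.41 TPM for members with another known role and 1.62 TPM for those with none. At 10 TPM or more were 24 of the 40 cilia-linked members (60%), 41 of the 105 others (39.0%) and 65 of all 145 (44.8%). Over all genes listed the share was 12.8%, and over those with a count in any library it was 30.9%. The member shares include members at 0 in every library, 22 of the 145. Genes just inside that split were Ccdc108 at 10.6, Ccdc6 at 10.4 and Ccdc136 at 10.2 TPM, and just outside it were Ccdc134 at 9.52 and Ccdc167 at 9.22 TPM. Level alone thus did not part the classes, since 41 members outside them also stood at 10 TPM or more.

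**Figure D1:**
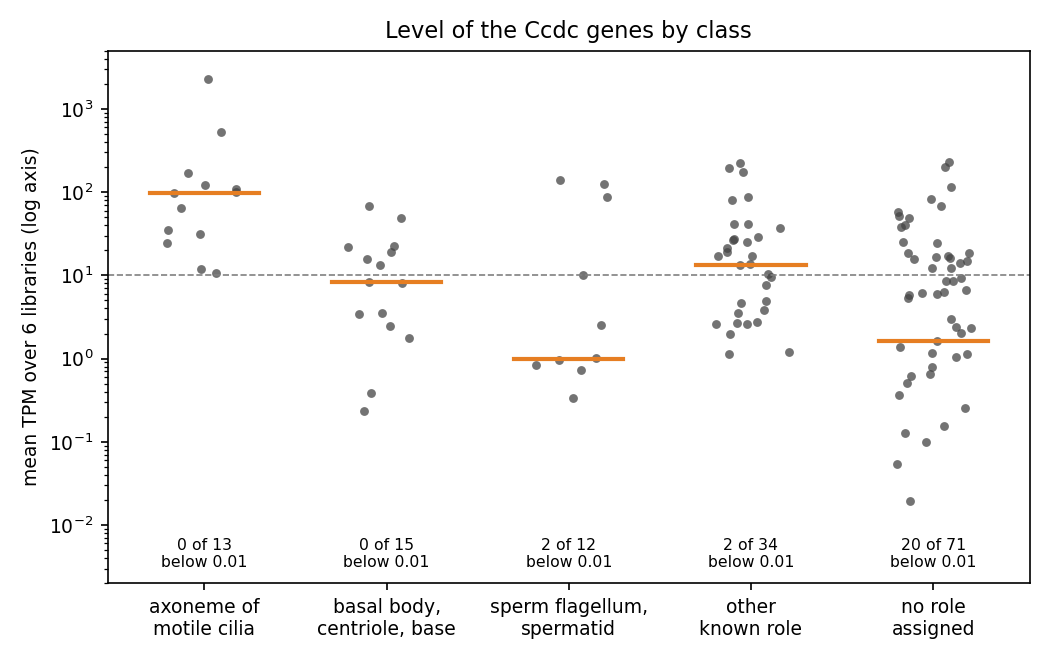
Mean TPM over the 6 libraries (log axis) of each Ccdc gene, 1 point a gene, by class of known role. All 13 axoneme members lie at 10 TPM or more, while each other class has members under 10 TPM and 24 of the 145 members lie below 0.01 TPM.

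Ccdc153, a subunit of the nexin-dynein regulatory complex that links neighbouring doublets, was the most abundant member. It stood at 2172, 2222 and 2183 TPM in the cKO libraries, against 2760, 1760 and 2765 TPM in the controls. The cKO values lay close together inside the wider control range. Its mean of 2310.3 TPM ranked 35 among all genes, and it alone made up 35.0% of the summed level of all members and 63.8% of that of the axoneme class. Its log2 difference was -0.16 ± 0.21 (SE), and without control 1 it was 0.021. Without control 2, the lowest library, it was -0.37, the only fit with 1 library left out in which its unadjusted p was under 0.05. The gene lies at chr9:44240676-44247306 on the plus strand (GRCm38, GENCODE M21).

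Ccdc113 and Ccdc96 are partners in an axonemal complex near the radial spokes. Ccdc113 had the smallest relative spread of the 6 axoneme members at 100 TPM or more, with 559, 558 and 586 TPM in the cKO and 505, 489 and 490 TPM in the control. All cKO values were above all control values on this scale, by a small margin, and the log2 difference from counts was 0.19 ± 0.15 (SE). Ccdc96 stood at 32.0, 15.9 and 32.7 TPM in the cKO, against 1.53, 24.5 and 42.0 TPM in the control. Control 1 was far below the rest, and without it the log2 difference of Ccdc96 moved to -0.23, against 0.31 with all libraries.

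Ccdc65, a second subunit of the nexin-dynein regulatory complex, was at 205.8, 132.7 and 220.0 TPM in the cKO and at 153.5, 150.2 and 166.7 TPM in the control. The groups overlapped, with a log2 difference of 0.25 ± 0.24 (SE) that moved to 0.091 without cKO 3 and 0.46 without cKO 2. Ccdc114 and Ccdc151 encode subunits of the complex that docks outer dynein arms. Ccdc114 was at 121.5, 114.0 and 81.9 TPM in the cKO, against 72.1, 151.4 and 109.8 TPM in the control. Ccdc151 was at 43.9, 23.8 and 30.9 TPM in the cKO, against 0.07, 51.8 and 58.6 TPM in the control. For Ccdc151 the low value was again control 1, which held 2 counts where the other 5 libraries held 539 to 1538. Its log2 difference was -0.10 ± 1.36 (SE) with all libraries and -0.68 without control 1.

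Ccdc103, a dynein arm attachment factor, was higher in every cKO library, at 108.0, 108.1 and 150.5 TPM, against 63.95, 78.1 and 93.3 TPM in the control. The log2 difference was 0.59 ± 0.27 (SE, edgeR adjusted p = 0.99999), and without control 1 it was 0.45. Ccdc39 and Ccdc40 form the ruler that sets the spacing of the inner arms and radial spokes. Ccdc39 was at 65.2, 78.5 and 103.7 TPM in the cKO, against 26.4, 51.6 and 57.7 TPM in the control, so that the groups did not overlap. Ccdc40 was at 9.23, 10.8 and 8.74 TPM in the cKO, against 5.80, 20.5 and 15.5 TPM in the control, and there the groups overlapped. Over the 6 libraries Ccdc39 averaged 63.8 TPM and its partner 11.8 TPM.

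Of the remaining axoneme members, Ccdc189 was at 106.7 to 149.9 TPM over all libraries and Ccdc181, which binds microtubules, at 54.2 to 137.3 TPM. Ccdc173, a protein inside the doublets, was at 15.6 to 45.1 TPM and Ccdc108 (Cfap65 in newer annotation) at 4.81 to 13.8 TPM. All 4 had overlapping groups. The class summed to 3519, 3529 and 3682 TPM in the cKO, against 3781, 3116 and 4086 TPM in the control. Without Ccdc153 the sums were 1346, 1306 and 1499 TPM in the cKO and 1020.5, 1356 and 1321 TPM in the control, where the lowest was control 1. In bulk RNA, fewer ciliated cells and less RNA per cell cannot be told apart.

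**Figure D2:**
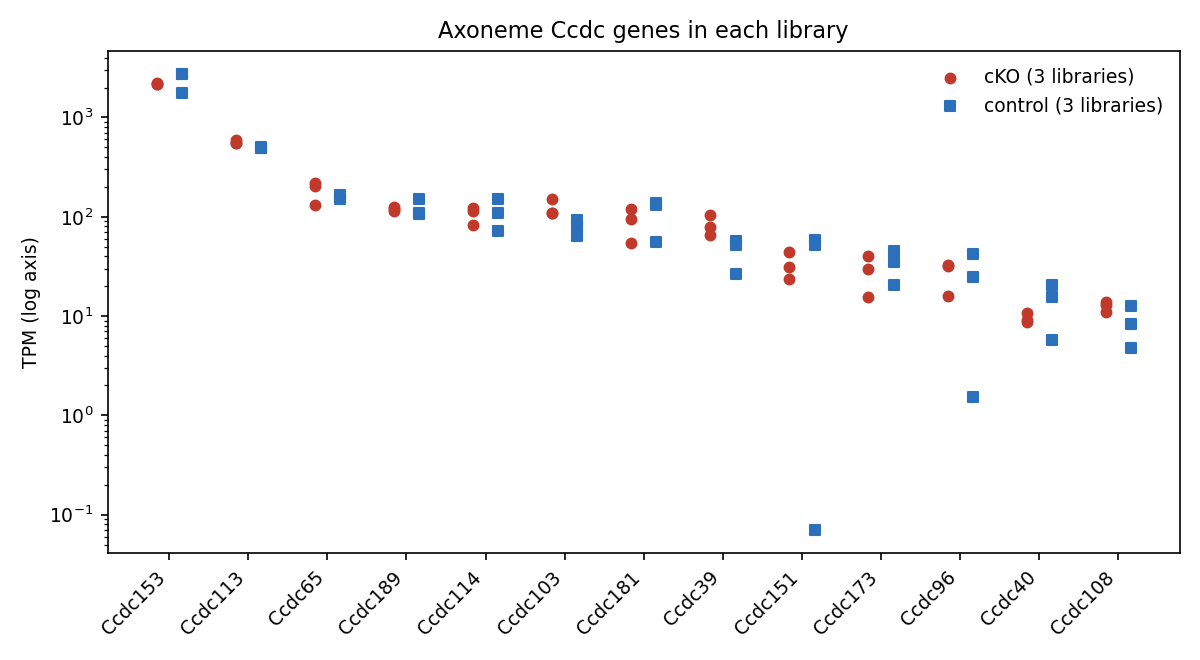
TPM (log axis) of the 13 axoneme Ccdc genes in each library, with cKO libraries left of control libraries for each gene. Most genes have overlapping groups, and Ccdc151 and Ccdc96 each have 1 control library far below the others.

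Among members of other classes, the highest levels were those of Ccdc107 (228.4 TPM), Ccdc3 (223.9 TPM), Ccdc74a (198.8 TPM), Ccdc124 (197.3 TPM) and Ccdc53 (172.2 TPM). Ccdc3 encodes a secreted protein known from fat and vessel cells, Ccdc124 a ribosome-associated protein and Ccdc53 a subunit of the WASH complex, which drives actin assembly on endosomes. Of the 25 most abundant members, 8 were axoneme members, 3 sperm members, 1 a basal body member, 5 had another known role and 8 had none. The 3 sperm members were Ccdc146 (139.4 TPM), Ccdc33 (125.9 TPM) and Ccdc34 (88.2 TPM), and the basal body member was Ccdc67. Ccdc24 (115.9 TPM) and Ccdc90b (87.8 TPM), a mitochondrial protein, completed the 10 most abundant outside the axoneme class. Each of these 10 had overlapping groups, with log2 differences between -0.41 for Ccdc53 and 0.21 for Ccdc74a. Ccdc3 and Ccdc24 are uncertain, because 67.5% and 58.7% of their 31-base words also occur in transcripts of another gene. The genes that shared most words with them were listed at low means, Gm26776 (with Ccdc3) at 0.67 TPM and Slc6a9 (with Ccdc24) at 2.94 TPM. The part that shared reads have in these values was not tested.

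The second comparison asked whether members differed between cKO and control ependymal cells. Of the 145 members, 99 passed the filter on low counts and were tested. At a Benjamini-Hochberg adjusted p of 0.05 over 11574 genes, the edgeR quasi-likelihood test called 0 of the 99 members, with 0% of all genes called. limma-voom also called 0. At an unadjusted p of 0.05, edgeR picked 6 members (6.06%), where 2.75% of all genes were picked, and limma-voom picked 11 members (11.1%), where 5.25% were. Of these 11, 6 were higher in the cKO (3.19% of all genes) and 5 lower (2.06%). The 6 picked by edgeR were Ccdc39 and Ccdc71, higher in the cKO (1.43% of all genes), and Ccdc60, Ccdc67, Ccdc81 and Ccdc127, lower in the cKO (1.31% of all genes). Without control 2 the number picked by edgeR was 14, and with any other library left out it was 4 to 7. The share of all genes picked in those fits was not worked out, so these numbers are not read as a result about the members. DESeq2 called 2 of 102 members at an adjusted p of 0.05, Ccdc71 and Ccdc87, both higher in the cKO, where 1.69% of 11823 genes were called, 0.939% higher and 0.753% lower. Both were at 0 in all 3 controls and could be tested only through the cKO libraries.

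The members as a whole were balanced between the groups. The log2 difference was positive for 49 of 99 (49.5%), against 50.3% of all genes, with a median of -0.03 over members and 0.004 over all genes. In the axoneme class 6 were positive and 7 negative, the median was -0.03, and none of the 13 passed 1 in size. In the basal body class 5 were positive and 7 negative, with a median of -0.61. The spread was wider at lower levels. A log2 difference over 1 in size was seen for 0 of 14 members at 100 TPM or more (0.447% of all genes at that level) and 8 of 51 members at 10 to 100 TPM (15.7%, all genes 12.7%). At 1 to 10 TPM it was seen for 14 of 32 members (43.8%, all genes 39.1%).

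**Figure D3:**
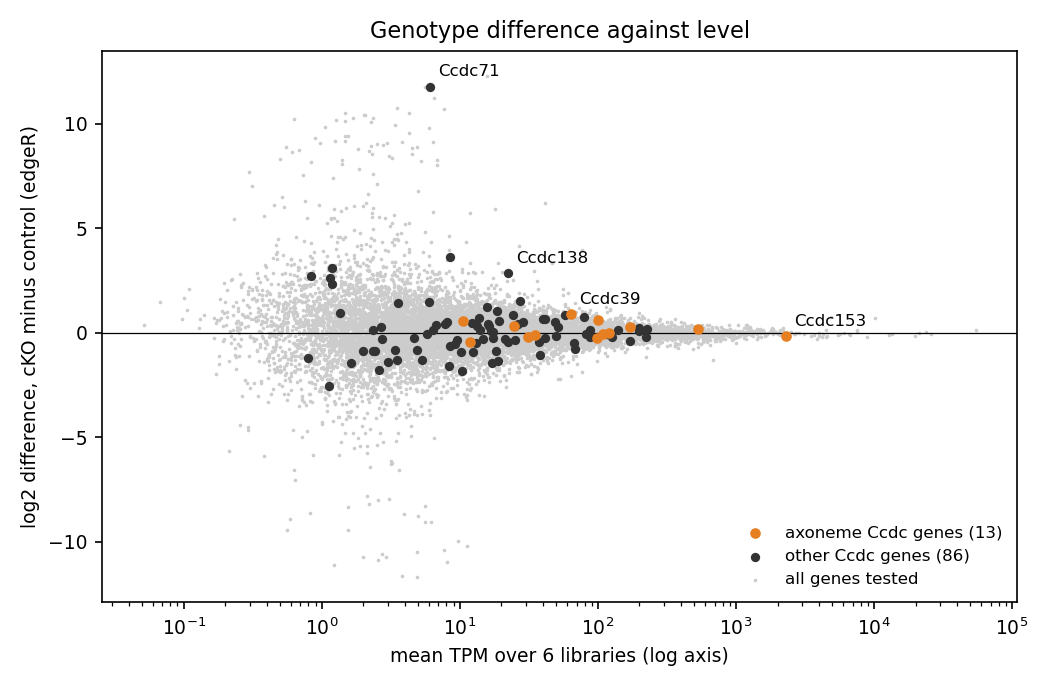
Log2 difference (cKO minus control, edgeR) against mean TPM (log axis) for the tested Ccdc genes, with all tested genes in grey. Axoneme members stay within a log2 difference of 1, members at 100 TPM or more stay close to 0, and the spread widens toward low levels.

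Overlap was next read on CPM, which are counts scaled for library size and not for length. The 3 cKO values lay above the 3 control values for 7 members (7.07%), where 4.99% of all genes did so. They lay below the control values for 6 members (6.06%), where 4.62% of all genes did so. Those above were Ccdc39, Ccdc62, Ccdc71, Ccdc103, Ccdc122, Ccdc138 and Ccdc163. Those below were Ccdc6, Ccdc60, Ccdc67, Ccdc81, Ccdc92 and Ccdc136. Neither share is far from that of all genes. For groups of 3 that do not overlap, the exact two-sided permutation p is 0.1, the smallest that 3 against 3 allows. The CPM values given next are on that same scale.

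Ccdc39 was at 198.4, 229.9 and 321.8 CPM in the cKO, against 87.2, 148.7 and 167.3 CPM in the control. The log2 difference was 0.90 ± 0.31 (SE, edgeR adjusted p = 0.99999), and it was 0.67 without control 1. Leaving out cKO 3, the highest library, also gave 0.67, and the unadjusted p was then no longer under 0.05. The gene lies at chr3:33812362-33844310 on the minus strand and shares 15.4% of its 31-base words with other genes, mostly Ttc14 on the opposite strand. Ttc14 had 442, 2398 and 2431 counts in the cKO and 896, 1412 and 948 counts in the control, with overlapping groups.

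Ccdc67 encodes the deuterosome protein Deup1, used by multiciliated cells to multiply centrioles while they mature. It was at 122.8, 91.9 and 108.0 CPM in the cKO, against 162.1, 140.7 and 246.7 CPM in the control, with a log2 difference of -0.77 ± 0.28 (SE, edgeR adjusted p = 0.99999). The highest value was control 3, and without it the log2 difference was -0.49. Without control 3, cKO 2 or cKO 3 the unadjusted p was no longer under 0.05. Ccdc78, another protein of deuterosomes, went the other way, at 55.8, 54.0 and 61.1 TPM in the cKO, against 27.3, 56.4 and 36.8 TPM in the control, with overlapping groups and a log2 difference of 0.52 ± 0.38 (SE).

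Ccdc81 and Ccdc60 were lower in the cKO with no overlap. Ccdc81 was at 60.1, 42.5 and 40.6 CPM in the cKO, against 82.4, 94.3 and 125.2 CPM in the control (log2 difference -1.08 ± 0.34 SE, edgeR adjusted p = 0.99999). Ccdc60 was at 14.6, 30.7 and 25.6 CPM in the cKO, against 54.0, 48.4 and 91.1 CPM in the control (log2 difference -1.45 ± 0.52 SE, edgeR adjusted p = 0.99999). In both genes control 3 was the highest library. Without it the log2 differences were -0.89 for Ccdc81 and -1.11 for Ccdc60, neither with an unadjusted p under 0.05, and for Ccdc60 the same held without cKO 1. Ccdc127 had 72.6, 68.7 and 49.7 CPM in the cKO, against 165.6, 68.7 and 124.2 CPM in the control, so that control 2 met the cKO values. Its log2 difference was -0.91 ± 0.38 (SE, edgeR adjusted p = 0.99999), and without control 1 it was -0.59. The unadjusted p was under 0.05 in only 1 of the 6 fits with a library left out, that without control 2. On the length-scaled values it was -0.58 with log2(TPM + 1) and -0.63 with log2(TPM + 0.1), neither with an unadjusted p under 0.05.

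Ccdc122 and Ccdc170 were also among the 10 members with the smallest edgeR p, as were Ccdc103 and Ccdc138. Ccdc122 was at 75.7, 98.5 and 99.6 CPM in the cKO, against 47.6, 36.4 and 70.0 CPM in the control. The groups did not overlap and differed by 0.83 ± 0.36 in log2 (SE). Ccdc170 was at 77.3, 57.0 and 111.5 CPM in the cKO, against 48.9, 22.9 and 64.3 CPM in the control, with overlap and a log2 difference of 0.85 ± 0.48 (SE). Without control 2 it was 0.54 and without control 3 it was 1.19. Neither had an unadjusted edgeR p under 0.05.

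**Figure D4:**
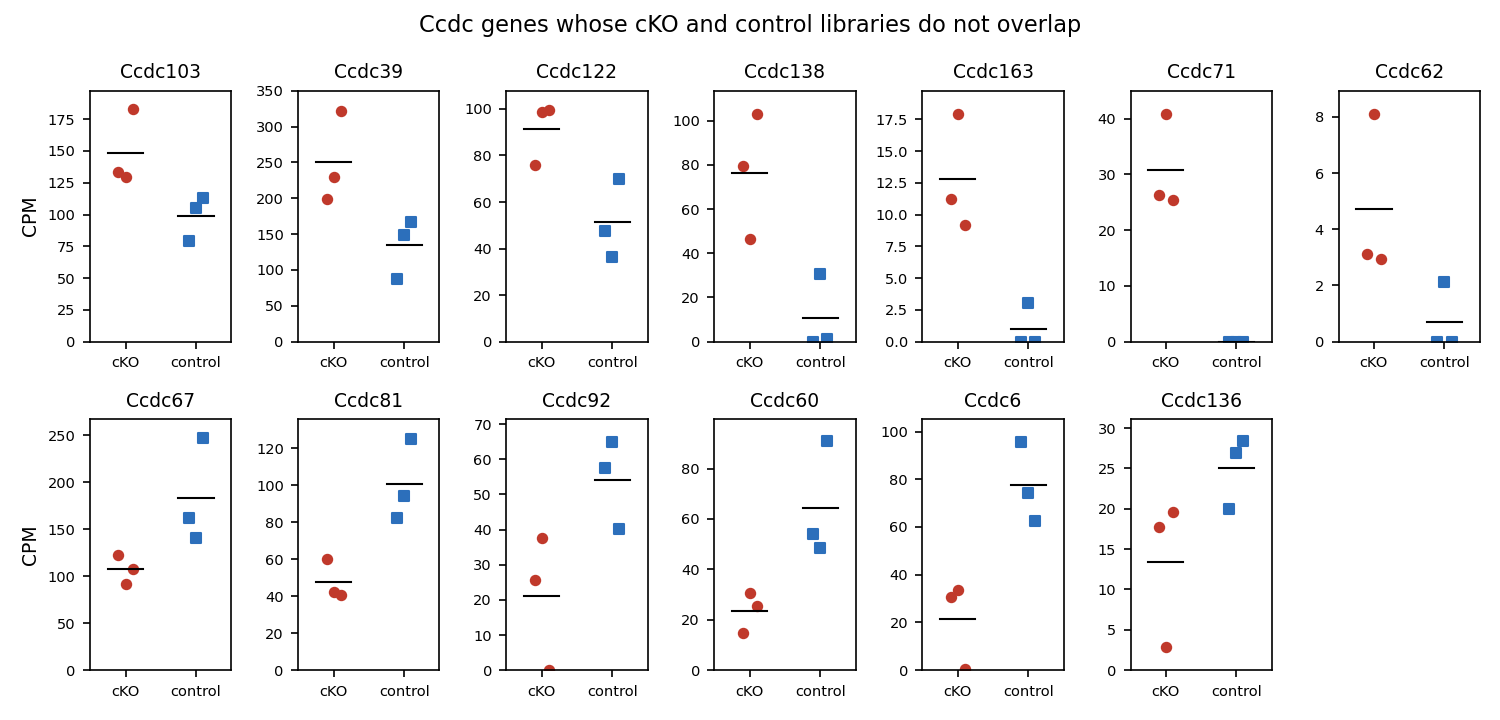
CPM in each library (cKO left of control) of the members whose groups did not overlap, with a line at the mean of each group. Ccdc39, Ccdc67, Ccdc81 and Ccdc103 have every library well above 0, whereas Ccdc71 is at 0 in all controls and Ccdc138 is near 0 in 2 of them. Near-zero libraries also occur in Ccdc163, at 0 in some controls, and in Ccdc6 and Ccdc92, each near or at 0 in a cKO library.

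Some members with large apparent differences rest on libraries with next to no counts. Ccdc71, a gene with no role assigned here, had 362, 549 and 346 counts in the cKO libraries, against 0 in every control. It entered the tests through the cKO libraries alone, so its p and its place among the members picked above are no support for a difference. Its mean over the cKO libraries was 152-fold a floor of 3 counts per library, and at least 127-fold with any 1 cKO library left out. These folds describe these libraries only. The gene lies at chr9:108460527-108465938 on the plus strand and overlaps exons of Klhdc8b on the other strand, with which it shares part of the 5.0% of its 31-base words found elsewhere. Klhdc8b had 160, 365 and 431 counts in the cKO, against 491, 668 and 818 in the control, higher in every control on the count scale. In TPM the Klhdc8b groups overlapped, at 7.53 to 20.1 TPM in the cKO and 18.7 to 35.9 TPM in the control. The part that shared reads have in the result was not tested.

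Ccdc87, a sperm gene, had 221, 305 and 2 counts in the cKO libraries, against 0 in every control. It did not pass the filter of the edgeR test and entered that of DESeq2 through its cKO libraries alone, so its call there is likewise no support. Its mean over the cKO libraries was 63.8-fold the same floor, 39.8-fold without cKO 2 and 95.3-fold without cKO 3. With 2 counts, cKO 3 itself lay below that floor. Ccdc109b, a subunit of the mitochondrial calcium uniporter, had 138, 64 and 0 counts in the cKO libraries, against 0 in every control. Ccdc125 had 191, 0 and 0 counts in the cKO, against 0, 1 and 0 in the control, and Ccdc177 had 0, 1 and 3 in the cKO, against 0, 237 and 7. In these last 2 genes a single library held nearly all counts. These 5 were the members at 3 counts or fewer in every library of 1 genotype with a mean of at least 50 in the other. Of them, 4 were low in the control and 1 in the cKO. The share of all genes with this pattern was not worked out, so these numbers are not read as a result about the members.

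Ccdc138, a protein of centriolar satellites, had 1097, 624 and 1403 counts in the cKO, against 1, 417 and 17 in the control. Its log2 difference was 2.86 ± 1.60 (SE, edgeR adjusted p = 0.99999), and without control 2 it was 7.03. Ccdc163 had 155, 241 and 125 counts in the cKO, against 0, 42 and 0 in the control. It shares sequence with Tesk2, which had 90, 83 and 19 counts in the cKO libraries, against 0 in every control, and 13.5% of its 31-base words occur in another gene. The part that shared reads have in its values was not tested. Ccdc6, known from fusions with Ret, had 424, 450 and 5 counts in the cKO, against 1443, 1017 and 980 in the control.

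Counts at or near 0 in single libraries were common among moderately expressed members. Of 88 members with a mean of at least 100 counts, 26 (29.5%) stood at 3 counts or fewer in some library, and of all genes with such a mean 25.1% did. The share was 83.3% for members with a mean of 100 to 200 counts (all genes 70.7%), 43.8% at 200 to 400 counts (32.8%) and 17.4% at 400 to 1000 counts (9.36%). Of 31 members with a mean of at least 1000 counts, 0 had such a library. By library, 6, 3 and 9 of the 88 were at 3 counts or fewer in the cKO, against 9, 4 and 10 in the control. Both genotypes were thus affected, though not every library alike. Among all genes with such a mean, the shares were 6.27%, 3.52% and 6.44% in the cKO, against 11.1%, 3.86% and 7.04% in the control. Control 1 had the highest of these shares. It also had the fewest genes with at least 1 count, 12460, against 13024 to 14530 in the other libraries.

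**Figure D5:**
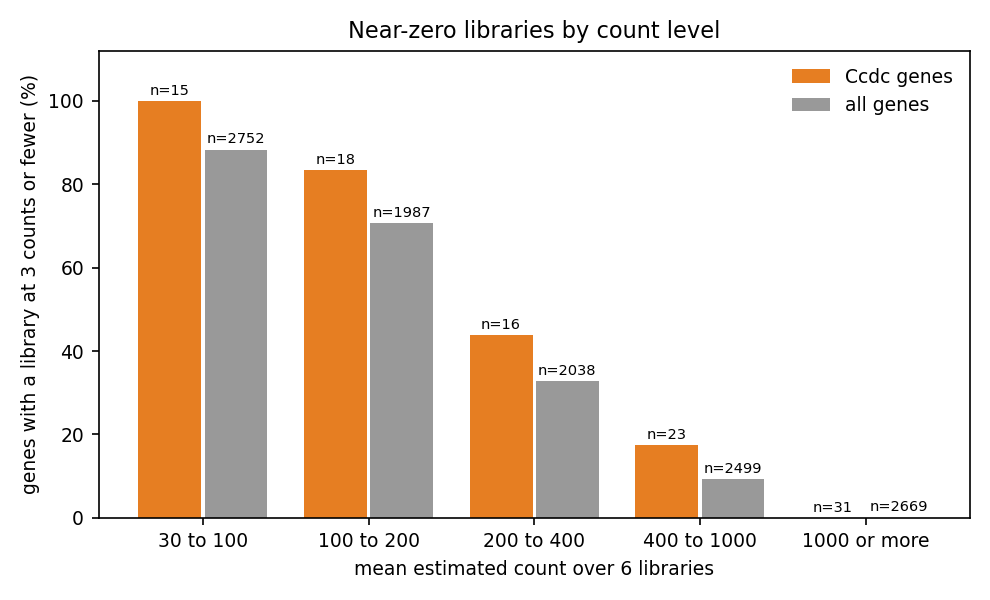
Share of genes (percent) with at least 1 library at 3 counts or fewer, by mean count over the 6 libraries, for Ccdc members and for all genes. The share falls with the mean count in both sets, and no member with a mean of at least 1000 counts has such a library.

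The members with the widest spread show what this means for single genes. Ccdc43 had 3, 643 and 330 counts in the cKO, against 173, 769 and 990 in the control. Ccdc92, a centriole protein, had 352, 506 and 0 in the cKO, against 870, 888 and 628 in the control. Its groups did not overlap, but the log2 difference of -1.36 had an SE of 1.495 and was -0.78 without cKO 3 and -2.08 without cKO 2. Ccdc117 had 1, 107 and 229 counts in the cKO, against 2, 774 and 88 in the control, and Ccdc134, a secretory pathway protein, had 159, 394 and 0, against 564, 4 and 232. Their log2 differences of -1.32 and -0.36 had SEs of 2.10 and 2.08.

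Ccdc22 and Ccdc93 are subunits of the CCC complex, which returns membrane proteins from endosomes to the cell surface, and both were sparse. Ccdc93 had 200, 49 and 0 counts in the cKO, against 681, 242 and 1 in the control, and Ccdc22 had 1, 214 and 0, against 1, 0 and 403. Of the 31-base words of Ccdc22, 89.8% also occur in another gene, so its values are uncertain. All 13 genes listed as partners of the complex, not all of them its subunits, had a mean of at least 10 TPM. Some varied widely, such as Commd5 at 0.288 to 47.4 TPM over the 6 libraries. edgeR called 0 of the 13 (0% of all genes), with 10 higher and 3 lower in the cKO (median log2 difference 0.11). At an unadjusted p of 0.05, where 2.75% of all genes were picked, edgeR picked 0 of the 13. Commd6 stood at 457.9 ± 68.7 TPM in the cKO and 428.8 ± 57.2 TPM in the control (SD, n = 3 each).

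The partners of the axoneme members were read in the same fit. Of 10 genes of the outer arms and their docking complex, edgeR called 0 (0% of all genes). In the cKO 4 were higher and 6 lower, with a median log2 difference of -0.10. At an unadjusted p of 0.05, where 2.75% of all genes were picked, edgeR picked 0 of the 10. Among them Efcab1, a calcium-binding docking protein, stood at 396.5 ± 37.4 TPM in the cKO and 312.1 ± 61.0 TPM in the control (SD, n = 3 each), and Dnaic1, an intermediate chain of the outer arm, at 128.1 ± 24.0 TPM in the cKO and 137.5 ± 16.5 TPM in the control. Of 14 genes of the nexin-dynein regulatory complex and the inner arms, edgeR called 0 (0% of all genes). In the cKO 7 were higher and 7 lower, with a median of 0.03. At the same unadjusted p edgeR picked 0 of the 14 (2.75% of all genes). Gas8, a core subunit of that complex, stood at 65.6 ± 17.4 TPM in the cKO and 48.5 ± 5.32 TPM in the control, and Drc1, its partner, at 48.4 ± 8.09 TPM in the cKO and 74.2 ± 50.5 TPM in the control.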

How the data were processed

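Ependymal RNA from 3 cKO and 3 control samples was sequenced, and groups and replicate numbers were taken from the sample titles. Per the submitters' processing notes, CASAVA 1.8, cutadapt 1.11 and kallisto 0.42.5 were used. The genome build, the annotation and how genes were built from transcripts were not given in the sources used here. Per gene, the deposited tables list estimated counts and TPM, per the file headers. Estimated counts are the reads that kallisto shares out among similar transcripts, and the deposited TPM values are scaled by the authors' pipeline for transcript length and library size. Estimated counts were rounded here.

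Genes were filtered with filterByExpr (11574 of 19684 with any count kept), normalized by TMM and then tested with edgeR 4.0.16 (robust quasi-likelihood, genotype only) in R 4.3.3. p-values were adjusted by Benjamini-Hochberg over all genes kept. Library totals were 13401499 to 15689579 counts, and the common dispersion was 1.28. Alternatives were DESeq2 1.42.0, its size factors in edgeR, no filter, limma 3.58.1 (voom, log2(TPM + 1) and log2(TPM + 0.1)), a replicate block, other level splits and leaving out each library.

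Member coordinates come from GENCODE M21 (GRCm38), matched by identifier without its version. Shared sequence was counted as 31-base words of a gene's annotated transcripts that occur in another gene. A total of 12 members share exons with a gene on the same strand and 51 with one on the opposite strand, and whether counting used strand is not given. Words shared with another gene made up over 10% in 30 members. Floors cover counting error only, whereas the SE and SD values reflect the spread between these samples.

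Members, classes, lists and tests were chosen with earlier results of these data known. Given with values were axoneme members of at least 10 TPM, the 10 most abundant others, the 10 with the smallest edgeR p, those at 3 counts or fewer throughout 1 genotype with a mean of at least 50 in the other, and the 8 with the widest spread among members with at least 100 counts in 1 library and 3 or fewer in another. Ccdc6, Ccdc22, Ccdc78 and Ccdc163 were added after their values were seen.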

Additional observations from a re-analysis of the deposited data

How the results depend on the processing

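edgeR with DESeq2 size factors, edgeR without a filter, limma-voom, log2 TPM fits in limma, the replicate block and every fit with 1 library left out also called 0 members and 0 genes. DESeq2 called 2 members and 200 genes. Members at an unadjusted p of 0.05 numbered 6 in the reported fit (2.75% of all genes) and 11 with limma-voom (5.25% of all genes). They numbered 10 with DESeq2, 8 without a filter, 8 on log2 TPM with either pseudocount, and 4 to 14 with 1 library left out. Outside the reported fit and limma-voom the share of all genes was not worked out. Members at 10 TPM or more numbered 65, and 43 reached 20 TPM, while with 1 library left out 63 to 66 reached 10 TPM. Axoneme members at 10 TPM or more numbered 12 to 13 with 1 library left out. The log2 difference of Ccn1 ranged between -2.50 and -1.97 with 1 library left out. The labels do not say whether replicate numbers pair the samples. Deviations of same-numbered libraries correlated at 0.008, 0.031 and 0.015, and each library correlated best with its own number. With 3 libraries in each group, these values cannot settle whether the samples are paired. With the replicate block, 0 members and 0 genes were called, 6 members had an unadjusted p under 0.05, and Ccn1 stood at -2.27.

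Of 36 members given with a fitted log2 difference, 22 had the same sign under every alternative. The sign of Ccdc151, -0.10 in the reported fit, was positive with limma-voom (2.39), on log2(TPM + 1) (1.13) and log2(TPM + 0.1) (1.99) and with the replicate block (0.60). With 1 library left out, the log2 differences of 14 members took both signs: Ccdc151 at -0.68 to 0.41, Ccdc153 at -0.37 to 0.021, Ccdc189 at -0.14 to 0.10, Ccdc114 at -0.24 to 0.20, Ccdc181 at -0.54 to 0.017, Ccdc173 at -0.59 to 0.078, Ccdc96 at -0.23 to 1.112, Ccdc124 at -0.033 to 0.30, Ccdc146 at -0.13 to 0.51, Ccdc24 at -0.28 to 0.25, Ccdc34 at -0.025 to 0.45, Ccdc90b at -0.48 to 0.085, Ccdc117 at -2.37 to 1.52 and Ccdc134 at -1.59 to 0.85. The cause was not tested. Others kept their sign but moved by over 1.5 times: Ccdc40 at -0.76 to -0.0037, Ccdc108 at 0.33 to 0.92, Ccdc107 at 0.019 to 0.32, Ccdc3 at -0.37 to -0.044, Ccdc74a at 0.14 to 0.27, Ccdc53 at -0.65 to -0.25, Ccdc33 at -0.30 to -0.074, Ccdc43 at -1.83 to -0.27 and Ccdc93 at -3.53 to -0.55. Near-zero libraries limit members with a mean under 1000 counts, most of all those under 400.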

Other observations

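The TPM and count values of a gene differ by the transcript length that the estimate assigns to it, and for a few members that length differed between libraries. Of 56 members with at least 50 counts in all 6 libraries, 40 had a ratio of the longest to the shortest assigned length under 1.1 (71.4%, all genes 81.7%) and 4 had a ratio over 1.5 (7.14%, all genes 6.09%). The 4 were Ccdc127 (2.12), Ccdc64 (2.01), Ccdc32 (1.59) and Ccdc146 (1.52), named after their values were seen. For Ccdc127 the shortest length was in cKO 3. For 0 of the 56 did the cKO-to-control ratio of means differ in sign on the log scale between TPM and CPM.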
